A study of Homo sapiens with 12 samples.

Results

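The genes described here carry out or steer the decay of mRNA in the cell: the decapping enzymes and their cofactors, the LSM1-7 ring, the XRN exonucleases, the deadenylases, the RNA exosome, the nonsense-mediated decay factors, the proteins that bind AU-rich elements and the core of miRNA silencing. They were chosen by gene symbol as a named list of 59 genes. The rule itself uses no measured value, but the list was drawn up with earlier results of these data known. Of these, 50 were each measured by 1 probe set that carries a single gene symbol, among 14232 such genes on the array. SKIV2L2 and AUF1 were read through their current symbols, MTREX and HNRNPD. The other 9 were dropped: CNOT1, CNOT3, CNOT10, BTG1, PABPC4, DIS3 and SMG1 were present only on probe sets that carry several symbols, and PABPC1 and UPF3B were not listed in the annotation.

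The study measured RNA in CCRF-CEM cells, an established T-lymphoblastic leukaemia line, and asked how gene expression differed after 3 h of drug exposure. There were 12 arrays in 4 groups, with 3 biological replicates each: non-treated control cells, and cells given 250 nM AB61, 550 nM tubercidin or 1 nM actinomycin D. Each dose was 5 times the IC50 of the compound in these cells, so the doses differ in nM. All cultures were of the same line, and no vehicle is described for the control cells. Tubercidin is a 7-deaza analogue of adenosine, and AB61 is 7-(2-thienyl)-7-deazaadenosine, which carries a thienyl group that tubercidin lacks. Actinomycin D binds to DNA and can block transcription. How far it did so at 1 nM was not measured here.

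A typical mRNA is protected by a cap at its 5′ end and a poly(A) tail at its 3′ end. Decay usually starts when the PAN2-PAN3 complex and then the CCR4-NOT complex shorten the tail. The LSM1-7 ring with PATL1 then binds the shortened end, DCP2 removes the cap with the help of DCP1 proteins and EDC proteins, and XRN1 digests the body from the 5′ end, while the exosome digests from the 3′ end. Adaptors choose which mRNAs are sent down this path: the TOB and BTG proteins, the ZFP36 family on AU-rich elements, the argonaute and TNRC6 proteins on miRNA targets, and UPF1 on mRNAs with a premature stop codon.

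Values are log2 levels as the authors normalized them with RMA, a method that gives all arrays a similar distribution. If every mRNA fell alike, these values would not show it, and every difference is relative to the other genes. In RNA from whole cultures, a lower level in every cell cannot be told apart from fewer cells that express a gene. The arrays correlated with each other at 0.983 to 0.996. Of the T-lymphoid markers, 12 of 13 were measured, at mean log2 levels of 7.07 to 10.16, with CD7 at 10.10 and CD5 at 10.16. The B-cell markers ranged from 5.84 to 7.53, the myeloid markers from 3.42 to 6.77, and the stromal and epithelial markers from 2.41 to 9.72, the highest being KRT8. The SD among the 3 replicates of a group had a median over the 50 genes of 0.16 in control, 0.17 after AB61, 0.17 after tubercidin and 0.11 after actinomycin D.

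Of the 50 decay genes measured, 1 passed the test after 3 h: DCP1B, which encodes a cofactor of the decapping enzyme, rose. None of the 50 genes had a fitted difference of 2-fold or more in any comparison. The median absolute log2 difference over the 50 genes was 0.165 after AB61, 0.0918 after tubercidin and 0.169 after actinomycin D. For all genes it was 0.121, 0.0973 and 0.0923, so the decay genes differed more than genes at large after AB61 and actinomycin D. After actinomycin D, DCP1B was 1 of 17 genes past an adjusted p of 0.05 in limma, and 0.119% of all genes passed. After AB61 none of the 50 passed, beside 0.169% of all genes, and after tubercidin none, beside 0.0913%. When the mean of the 3 treated groups was set against control, DCP1B passed and 1.05% of all genes did. The 3 comparisons share the control arrays and are therefore not independent of each other.

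At an unadjusted p under 0.05, 11 of the 50 genes differed after AB61, beside 12.1% of all genes, with 3 higher (5.82% of all genes) and 8 lower (6.25%). After tubercidin 5 did, beside 8.8% of all genes, with 1 higher (5.27%) and 4 lower (3.53%). After actinomycin D 6 did, beside 9.39%, with 2 higher (4.89%) and 4 lower (4.5%). Over the treated groups together 10 did, beside 13% of all genes, with 4 higher (6.84%) and 6 lower (6.2%). The arrays of treatment and control did not overlap for 9 genes after AB61, 5 after tubercidin and 10 after actinomycin D, beside 12.6%, 14% and 14.4% of all genes. For 3 of the 50, all 9 treated arrays lay beyond all 3 control arrays beside 4.53% of all genes. DCP1B was the 1 above, where 2.63% of all genes were, and TOB2 and AGO2 were the 2 below, where 1.9% were. The median log2 difference over the 50 genes was -0.11 after AB61, -0.01 after tubercidin and -0.08 after actinomycin D, where the medians over all genes were 0.04, -0.02 and 0.00. With the trend over intensity removed from each array, the medians over the 50 genes were -0.08, -0.03 and -0.07. Single arrays weigh on these small differences: with each array left out in turn, the sign turned at least once for 13 of the 50 genes after AB61, 22 after tubercidin and 13 after actinomycin D. For a further 28, 22 and 24 the difference kept its sign and moved by over 1.5 times.

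**Figure D1:**
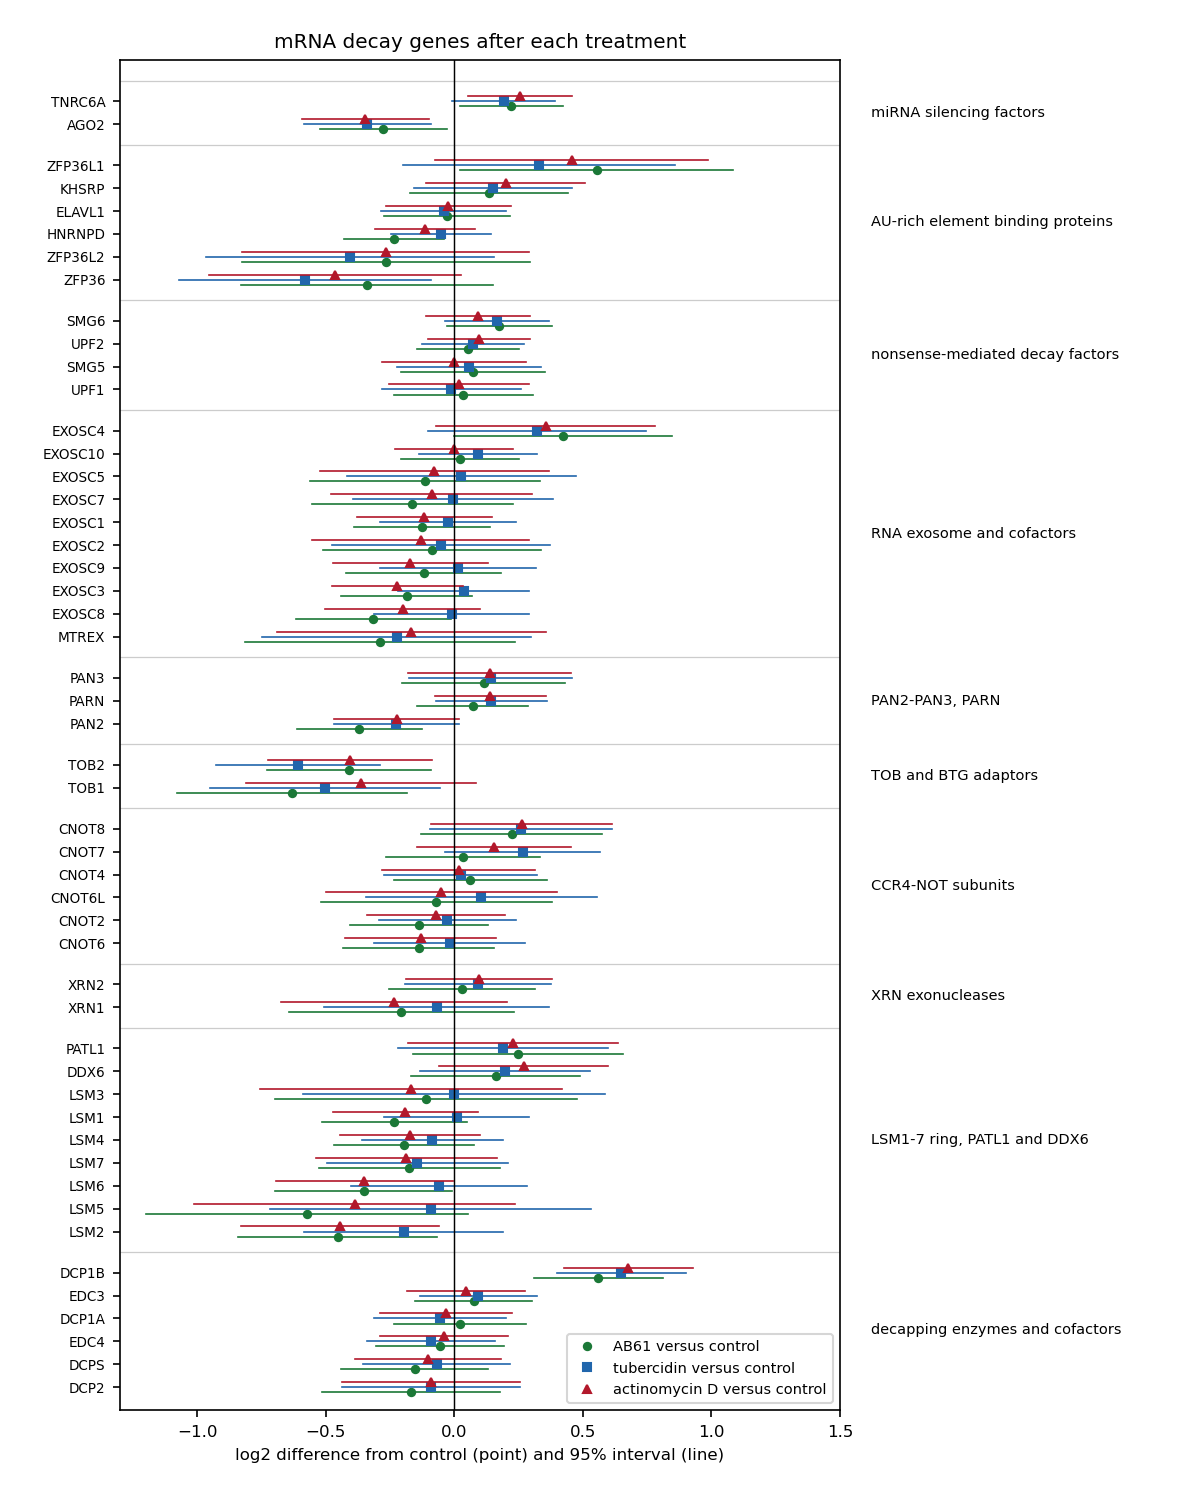
Log2 difference from control (x axis, log2 units) of each of the 50 measured decay genes (y axis, grouped by role) after AB61, tubercidin and actinomycin D, with points for the fitted difference and bars for its 95% interval. Intervals lie mostly across 0, and DCP1B stands to the right at 0.56, 0.65 and 0.68.

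DCP1B and its paralog DCP1A bind the catalytic subunit DCP2 and activate it. The 3 control arrays gave DCP1B log2 levels of 6.90, 6.87 and 6.77. The levels were 7.53, 7.48 and 7.21 after AB61, 7.63, 7.36 and 7.49 after tubercidin, and 7.65, 7.53 and 7.39 after actinomycin D. Every treated array was above every control array, and the 3 treated groups overlapped each other.

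DCP1B rose after actinomycin D by 0.68 on the log2 scale (1.60-fold, SE 0.12, n = 3 and 3), with an adjusted p of 0.0492 in limma. Over the treated groups together it rose by 0.63 (1.55-fold, SE 0.09, 95% interval 0.42 to 0.83), with an adjusted p of 0.0122, and ranked 18 by p among all genes. After AB61 the difference was 0.56 (1.47-fold, adjusted p 0.0751) and after tubercidin 0.65 (1.57-fold, adjusted p 0.0571). Arrays of the AB61 and control groups that carry the same replicate number deviated together, as did some arrays of the other groups. With that number as a block over all 12 arrays, the adjusted p of DCP1B after AB61 was 0.0199, and it was the 1 gene of the 50 past the threshold. With only the AB61 and control arrays in the blocked fit it was 0.108.

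The actinomycin D call lies at the threshold and was kept in 5 of 26 alternative settings. Of those that leave out 1 array, only the one without AB61 replicate 3 kept it. The pooled call was kept in 20 of 23 settings, and its adjusted p became 0.0705 on centring on the ribosomal protein genes, 0.0894 without control replicate 2 and 0.0877 without control replicate 3. The difference itself stayed above 0 in every setting tried, from 0.59 to 0.74 in the pooled comparison. In the authors' deposited table, DCP1B has unadjusted p-values of 0.000561 for AB61, 0.000152 for tubercidin and 0.000103 for actinomycin D, which adjusted here over all genes become 0.126, 0.110 and 0.104.

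The promoter of DCP1B is shown because this is the member that passed the test, and that of TOB2 because its 9 treated arrays all lay on the other side of control. AGO2 met the same rule as TOB2, and its promoter is not shown. Each run is the 250 bases before the RefSeq transcription start in GRCh38.p14, read 5′ to 3′ on the gene's own strand, which is the minus strand in both cases, at chr12:2004458-2004707 for DCP1B and at chr22:41446802-41447051 for TOB2. Capitals mark the letters of the motifs found among those searched.
DCP1B: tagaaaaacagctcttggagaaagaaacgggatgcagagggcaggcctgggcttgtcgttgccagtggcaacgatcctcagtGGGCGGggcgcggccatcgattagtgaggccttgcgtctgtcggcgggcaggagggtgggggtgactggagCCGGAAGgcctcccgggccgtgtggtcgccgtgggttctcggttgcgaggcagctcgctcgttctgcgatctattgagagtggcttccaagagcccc
TOB2: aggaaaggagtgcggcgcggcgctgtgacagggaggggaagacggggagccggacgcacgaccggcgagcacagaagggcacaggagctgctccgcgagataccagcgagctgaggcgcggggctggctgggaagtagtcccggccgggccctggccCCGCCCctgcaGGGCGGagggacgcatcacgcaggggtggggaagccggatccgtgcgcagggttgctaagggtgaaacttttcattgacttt

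Both stretches are rich in G and C, at 63.6% for DCP1B and 68.4% for TOB2. DCP1B holds 1 GC box (GGGCGG) and 1 ETS core (CCGGAAG), and TOB2 holds a GC box on each strand. Both strands were searched for 10 motifs. The GC box was in 42.64% of the 35116 RefSeq promoters of this length and in 33 of the 42 decay gene promoters in the table. The ETS core was in 8.52% of all promoters and in 4 of the 42 (DCP1B, EDC3, HNRNPD and TNRC6A). The cyclic AMP response element (TGACGTCA) was in 1.65% of all promoters and in 1 of the 42, XRN2. Its core TGACG, counted also where it lies inside the full element, was in 21.22% and in 16 of the 42. The AP-1 motif (TGANTCA) was in 6.57% and 1, the E-box (CACGTG) in 6.34% and 5, the CCAAT box (CCAAT) in 32.01% and 16, the TATA box (TATAAA) in 10.72% and 2, the EGR motif (GCGTGGGCG) in 0.72% and 0, and the NRF1 motif in 1.03% and 1. These are matches of letters in a window and do not show that a factor binds there. The 35116 promoters were not limited to measured genes. They were also not matched to the decay genes in level or in G and C content. Whether the shares differ was not tested.

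**Figure D2:**
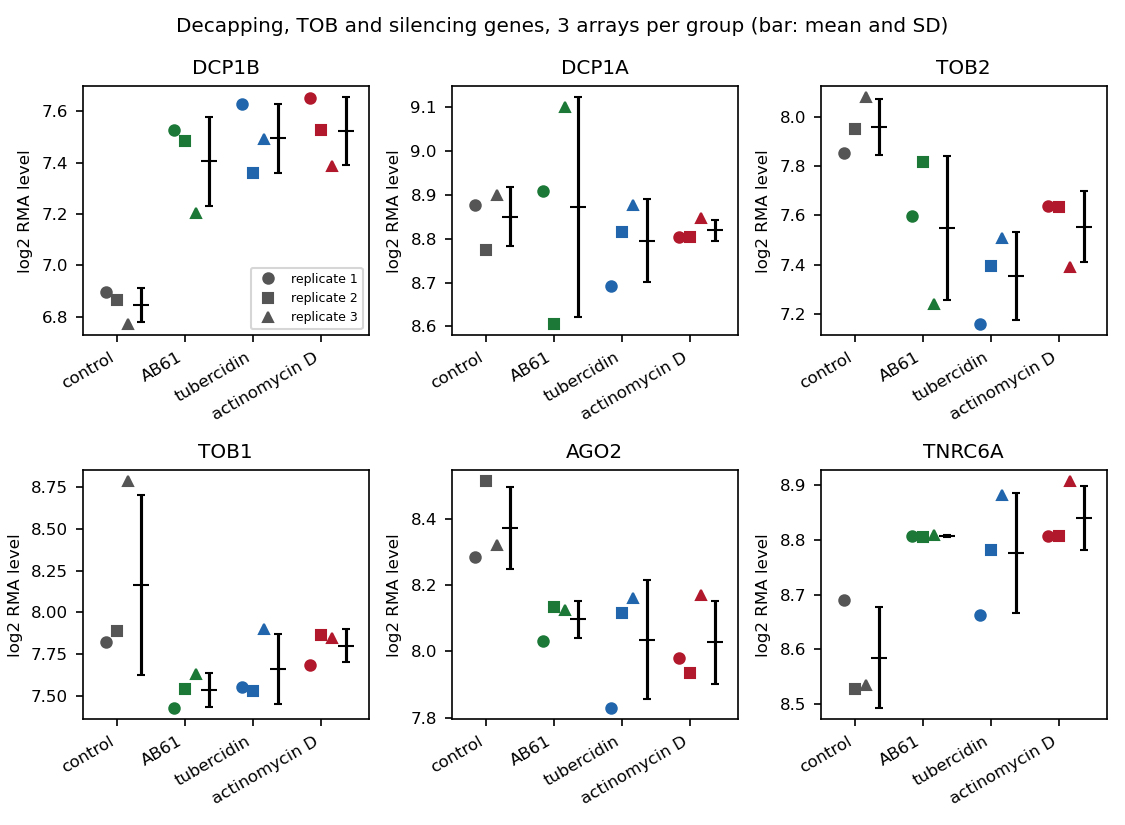
Log2 RMA level (y axis) of DCP1B, DCP1A, TOB2, TOB1, AGO2 and TNRC6A on each array (x axis, the 4 groups; marker shape gives the replicate number), with bars for the group mean and SD. All 9 treated arrays lie above control for DCP1B and below it for TOB2 and AGO2, and the DCP1A arrays overlap.

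DCP1A was set beside DCP1B because both do the same task, and this choice was made after its values were seen. Its control levels were 8.88, 8.77 and 8.90, and those on the treated arrays ranged from 8.61 to 9.10 on both sides of control. The log2 difference of DCP1A over the treated groups was -0.02 (95% interval -0.23 to 0.19, adjusted p 0.993), so a change as large as that of DCP1B lies outside its interval. DCP2, the enzyme that removes the cap, stood at 8.71, 8.64 and 8.91 in control, 8.46, 8.31 and 8.996 after AB61, 8.60, 8.67 and 8.72 after tubercidin and 8.46, 8.74 and 8.81 after actinomycin D. Its groups overlapped, with log2 differences of -0.17, -0.09 and -0.09, and none passed. The scavenger enzyme DCPS and the decapping enhancers EDC3 and EDC4 had differences of -0.15 to 0.09 over the 3 treatments.

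TOB1 and TOB2 bring the CCR4-NOT deadenylase to poly(A)-binding protein and restrain cell proliferation, and both had lower fitted levels after treatment without passing the test. The control levels of TOB2 were 7.85, 7.95 and 8.08. Its treated levels were 7.60, 7.82 and 7.24 after AB61, 7.16, 7.40 and 7.51 after tubercidin and 7.64, 7.63 and 7.39 after actinomycin D. All 9 treated arrays were below control, by a narrow margin at the nearest pair (7.82 after AB61 and 7.85 in control). Tubercidin gave the lowest mean. The log2 differences were -0.41 after AB61 (adjusted p 0.287), -0.61 after tubercidin (adjusted p 0.171) and -0.41 after actinomycin D (adjusted p 0.378). Together they gave -0.47 (1.39-fold lower, SE 0.12, adjusted p 0.0841), which passed only with array weights, at 0.0373.

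TOB1 stood at 7.82, 7.89 and 8.78 in control, so control replicate 3 was far above the other 2. After AB61 its levels were 7.43, 7.54 and 7.63, below all control arrays, and after tubercidin 7.56, 7.53 and 7.90. After actinomycin D they were 7.69, 7.87 and 7.85, close to the 2 lower controls. The log2 differences were -0.63, -0.50 and -0.36, and -0.50 over the treated groups (adjusted p 0.186). Without control replicate 3 they became -0.32, -0.19 and -0.05, and -0.19 over the treated groups.

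AGO2, the argonaute protein that cleaves or holds miRNA targets, stood at 8.28, 8.51 and 8.32 in control. It was at 8.03, 8.13 and 8.13 after AB61, 7.83, 8.12 and 8.16 after tubercidin and 7.98, 7.93 and 8.17 after actinomycin D. All 9 treated arrays were below the control arrays, by a narrow margin at the nearest pair. The difference over the treated groups was -0.32 (1.25-fold lower, SE 0.09, adjusted p 0.125), and the 3 treatments gave -0.28, -0.34 and -0.35. The actinomycin D difference passed only with array weights.

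TNRC6A, the scaffold through which argonaute recruits the deadenylases, was at 8.69, 8.53 and 8.53 in control. The levels were 8.81, 8.81 and 8.81 after AB61, 8.66, 8.78 and 8.88 after tubercidin and 8.81, 8.81 and 8.91 after actinomycin D. Its AB61 and actinomycin D arrays were above control and 1 tubercidin array was not. The differences were 0.22, 0.19 and 0.26, with a pooled adjusted p of 0.188. The fitted differences of these partners in miRNA silencing thus had opposite signs in each comparison with control, and neither passed the test in the settings reported.

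The ZFP36 proteins bind AU-rich elements and recruit deadenylases, and the 3 paralogs varied widely among the untreated cultures. ZFP36 (tristetraprolin) had control levels of 6.94, 7.48 and 8.07, the largest SD of any of the 50 genes in control, at 0.57. Its treated levels were 7.19, 7.43 and 6.85 after AB61, 7.03, 6.96 and 6.77 after tubercidin and 7.07, 7.14 and 6.89 after actinomycin D. All of them fell between 6.77 and 7.43, inside or just under the control range. The log2 differences were -0.34, -0.58 and -0.46, and the pooled one of -0.46 (SE 0.19, adjusted p 0.288) ranged from -0.74 without control replicate 1 to -0.17 without control replicate 3.

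ZFP36L1 had control levels of 7.52, 7.92 and 8.62, with the same array highest. Treated levels were 8.57, 8.78 and 8.37 after AB61, 8.12, 8.12 and 8.81 after tubercidin and 8.48, 8.55 and 8.40 after actinomycin D. The treated arrays were above control replicates 1 and 2 and on both sides of replicate 3. The log2 differences were 0.55, 0.33 and 0.46 (pooled 0.45, adjusted p 0.363), and the pooled value became 0.75 without control replicate 3 and 0.19 without control replicate 1. ZFP36L2 ranged from 10.17 to 11.00 in control and from 9.75 to 10.67 on the treated arrays, with differences of -0.27, -0.41 and -0.27. Without control replicate 3 they became -0.0045, -0.144 and -0.0047.

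**Figure D3:**
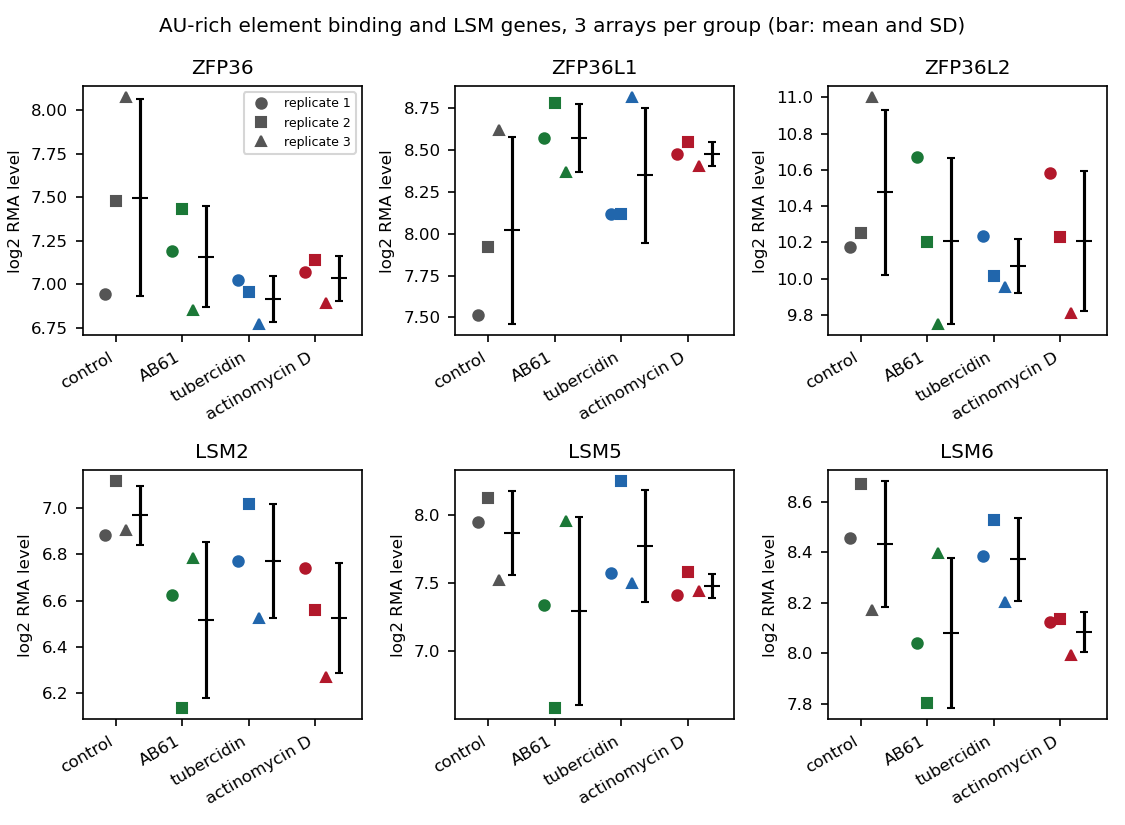
Log2 RMA level (y axis) of ZFP36, ZFP36L1, ZFP36L2, LSM2, LSM5 and LSM6 on each array (x axis, the 4 groups; marker shape gives the replicate number), with bars for the group mean and SD. Control replicate 3 is the highest control array for the 3 ZFP36 genes and the lowest for LSM5 and LSM6.

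HNRNPD (AUF1) also binds AU-rich elements and speeds decay. Its levels were 10.93, 10.97 and 11.01 in control and 10.70, 10.67 and 10.83 after AB61, with no overlap. After tubercidin they were 10.89, 10.92 and 10.94, and after actinomycin D 10.77, 10.85 and 10.95, which overlapped control. The AB61 difference was -0.23 (SE 0.09, adjusted p 0.319), against -0.05 and -0.11 for the other treatments. KHSRP, another decay-promoting protein, gave 0.14, 0.15 and 0.20, and ELAVL1 (HuR), which stabilizes such mRNAs, gave -0.03, -0.04 and -0.02.

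The LSM1-7 ring caps the shortened 3′ end and hands the mRNA to the decapping enzyme, together with PATL1 and the helicase DDX6. None of these 9 genes passed after any treatment. After AB61 and after actinomycin D, all 7 LSM genes had fitted differences below 0, as did 40.4% and 49.2% of all genes, and PATL1 and DDX6 lay above 0. The list's median log2 difference was -0.20 after AB61, -0.06 after tubercidin and -0.19 after actinomycin D. On the single AB61 arrays the list's median deviation from the control mean was -0.24, -0.39 and -0.04, and control replicate 3 stood at -0.16. Without AB61 replicate 2 the AB61 difference of LSM3 turned to 0.14. The other LSM genes stayed below 0 after AB61 with any single array left out. Centred on the ribosomal protein genes, which puts the median of all genes at 0.18, 0.12 and 0.06, the list's median became -0.06 after AB61, 0.08 after tubercidin and -0.13 after actinomycin D.

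LSM2 had log2 levels of 6.89, 7.12 and 6.91 in control, 6.63, 6.14 and 6.79 after AB61, 6.77, 7.02 and 6.53 after tubercidin and 6.74, 6.56 and 6.27 after actinomycin D. The AB61 and actinomycin D arrays lay below control, and those of tubercidin overlapped it. The log2 differences were -0.45 (adjusted p 0.334), -0.20 and -0.44 (adjusted p 0.442). The AB61 one became -0.26 without AB61 replicate 2, and the tubercidin one became -0.0738 without tubercidin replicate 3 and -0.32 without tubercidin replicate 2. LSM6 stood at 8.46, 8.67 and 8.17 in control, 8.04, 7.80 and 8.40 after AB61, 8.39, 8.53 and 8.20 after tubercidin and 8.12, 8.13 and 7.99 after actinomycin D. Only its actinomycin D arrays were all below control, and its differences were -0.35, -0.06 and -0.35.

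LSM5 was looked at after its values were seen, as the most variable gene of the 50 after AB61 (SD 0.69). Its AB61 levels of 7.34, 6.58 and 7.96 spread more widely than the control levels of 7.95, 8.13 and 7.52. The AB61 difference was -0.57 (SE 0.29) and ranged from -0.91 to -0.22 when single arrays were left out. PATL1 gave 0.25, 0.19 and 0.23 and DDX6 0.16, 0.20 and 0.27 over the 3 treatments.

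PAN2, the catalytic subunit of the deadenylase that makes the first cut into the tail, stood at 8.38, 8.55 and 8.64 in control. It was at 8.13, 8.25 and 8.08 after AB61, 8.10, 8.44 and 8.35 after tubercidin and 8.39, 8.25 and 8.25 after actinomycin D. Only the AB61 arrays were all below control. The AB61 difference was -0.37 (1.29-fold lower, SE 0.11, adjusted p 0.208), and those of tubercidin and actinomycin D were -0.23 and -0.22. Its partner PAN3 gave 0.12, 0.14 and 0.14.

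PARN, a poly(A)-specific ribonuclease, was at 9.27, 9.22 and 9.27 in control, 9.18, 9.46 and 9.32 after AB61, 9.34, 9.36 and 9.48 after tubercidin and 9.28, 9.48 and 9.41 after actinomycin D. The tubercidin and actinomycin D arrays lay just above control. The differences were 0.07, 0.14 and 0.14, and none passed.

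In the CCR4-NOT complex, which shortens most of the tail, 6 of 9 named subunits were measured, and the scaffold CNOT1 was not among them. None of the 6 passed, none had an unadjusted p under 0.05 and none separated the groups in the comparisons with control. Of the catalytic subunits, CNOT8 had log2 differences of 0.22, 0.26 and 0.26, CNOT7 of 0.03, 0.27 and 0.15, CNOT6 of -0.14, -0.02 and -0.13 and CNOT6L of -0.07, 0.11 and -0.05. CNOT2 and the ubiquitin ligase CNOT4 ranged from -0.14 to 0.06.

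The exonuclease XRN1, which digests decapped mRNA, stood at 8.44, 8.26 and 8.86 in control. Its levels were 8.14, 8.12 and 8.68 after AB61, 8.60, 8.10 and 8.65 after tubercidin and 8.06, 8.30 and 8.50 after actinomycin D. The groups overlapped, and the differences were -0.21, -0.07 and -0.23. Without control replicate 3, its highest control array, the AB61 and actinomycin D differences were -0.0374 and -0.0650. Its nuclear counterpart XRN2 gave 0.03, 0.09 and 0.10.

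The exosome digests RNA from the 3′ end, and 10 of 11 named genes of it and its cofactors were measured, without the catalytic subunit DIS3. None passed after any treatment. The list's median log2 difference was -0.12 after AB61, 0.00 after tubercidin and -0.12 after actinomycin D, with 8, 5 and 9 of the 10 genes below 0, beside 40.4%, 57% and 49.2% of all genes. Control replicate 1 was the highest control array in the list's median, and without it the medians were -0.06, 0.09 and -0.01. Centred on the ribosomal protein genes they were 0.01, 0.15 and -0.07.

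EXOSC4, a ring subunit, was the 1 exosome gene above 0 by over 0.1 after AB61. Its levels were 8.48, 8.22 and 8.04 in control, 8.92, 8.54 and 8.55 after AB61, 8.79, 8.61 and 8.32 after tubercidin and 9.01, 8.58 and 8.21 after actinomycin D. In each group replicate 1 was highest. The log2 differences were 0.42, 0.32 and 0.35, and the pooled difference of 0.37 (adjusted p 0.348) had an adjusted p of 0.0353 with the replicate number as a block. EXOSC8, another ring subunit, was at 9.32, 9.34 and 9.04 in control and 9.01, 8.59 and 9.14 after AB61, with differences of -0.32, -0.01 and -0.20. EXOSC4 and EXOSC8 were picked out after their values were seen. MTREX, the helicase that feeds RNA into the nuclear exosome, gave -0.29, -0.22 and -0.17.

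Of the nonsense-mediated decay factors, 4 of 6 were measured and none passed. UPF1, the helicase at the centre of the pathway, stood at 8.73, 8.74 and 8.61 in control, 8.78, 8.68 and 8.72 after AB61, 8.38, 8.94 and 8.72 after tubercidin and 8.81, 8.65 and 8.68 after actinomycin D. Its differences were 0.04, -0.01 and 0.02, with groups that overlapped. SMG6, the endonuclease of the pathway, gave 0.18, 0.17 and 0.09. UPF2 and SMG5 ranged from -0.00 to 0.10.

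**Figure D4:**
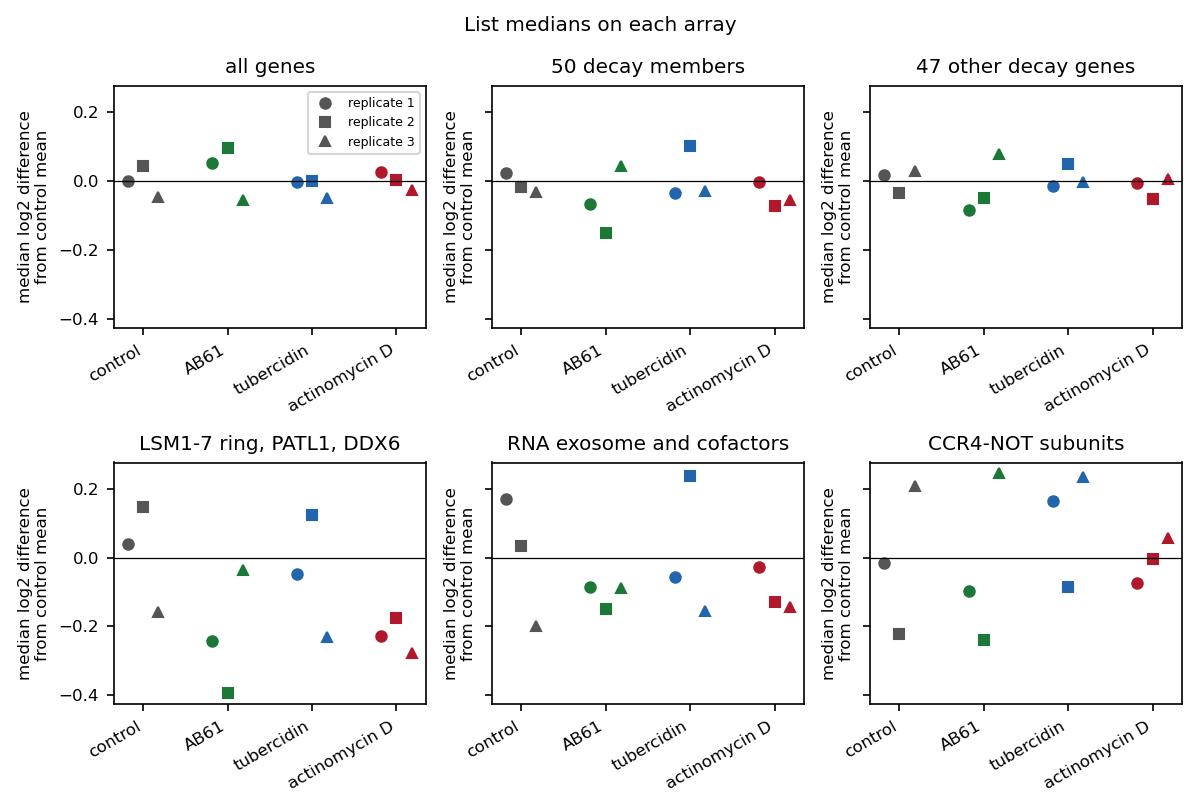
Median deviation from the control mean on each array (y axis, log2 units; x axis, the 4 groups) for all genes, the 50 decay genes, 47 other decay genes, the LSM list, the exosome list and the CCR4-NOT list. LSM list medians lie at -0.24, -0.39 and -0.04 on the AB61 arrays and at -0.23, -0.18 and -0.28 on the actinomycin D arrays. They lie at 0.04, 0.15 and -0.16 on the control arrays. Control replicate 3 thus comes close to the actinomycin D arrays and lies below AB61 replicate 3.

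The treatments were also set against each other, at doses that differ in nM and are the same multiple of the IC50. None of the 50 genes passed an adjusted p of 0.05 in limma in any of the 3 pairs, in the settings reported or in any alternative. Over all genes 0 passed as well, but 8 did between AB61 and actinomycin D with array weights, and 1 did between tubercidin and actinomycin D with the replicate block and 1 on centring on the ribosomal protein genes. At an unadjusted p under 0.05, 1 of the 50 genes differed between AB61 and tubercidin, beside 5.07% of all genes, none between AB61 and actinomycin D, beside 1.83%, and 1 between tubercidin and actinomycin D, beside 1.29%. The first was EXOSC8, lower after AB61 than after tubercidin by a difference of -0.31 (95% interval -0.61 to -0.00, adjusted p 0.793). The second was EXOSC3, another exosome subunit, with 0.26 for tubercidin minus actinomycin D (95% interval 0.00 to 0.51, adjusted p 1.00).

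AB61 and tubercidin, which differ by the thienyl group, gave DCP1B levels that differed by -0.09 (95% interval -0.34 to 0.16, AB61 minus tubercidin). For TOB2 that difference was 0.20 (95% interval -0.12 to 0.52), and for LSM5 it was -0.48 (95% interval -1.11 to 0.14). The 95% interval of the difference lay within 2-fold for 49 of the 50 genes in this pair and for all 50 in both other pairs. It lay within 0.5 on the log2 scale for 32 of the 50 between AB61 and tubercidin, 43 between AB61 and actinomycin D and 35 between tubercidin and actinomycin D. Against control, the 95% interval lay within 2-fold for 47 of the 50 after AB61, 49 after tubercidin and 49 after actinomycin D. It lay within 0.5 on the log2 scale for 25, 32 and 28 of them. The arrays of AB61 and tubercidin did not overlap for 1 gene, HNRNPD, beside 6.02% of all genes. Those of AB61 and actinomycin D did not overlap for 2, TOB1 and PAN2, beside 4.41%, and those of tubercidin and actinomycin D for 2, LSM6 and EXOSC8, beside 6.56%.

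A further list of 60 genes of mRNA decay that are not among the members had 47 measured. None of the 47 passed in any comparison with control. At an unadjusted p under 0.05, 7 differed after AB61, 4 after tubercidin and 7 after actinomycin D, which are 14.9%, 8.51% and 14.9% of the 47 beside the 12.1%, 8.8% and 9.39% of all genes. RC3H2 (roquin-2), which binds stem loops in mRNAs and recruits the deadenylase, stood at 8.73, 8.50 and 8.76 in control and from 8.82 to 9.29 on the treated arrays, all above control. Its differences were 0.46, 0.43 and 0.47, and the pooled 0.46 had an adjusted p of 0.0525. PNRC1, a cofactor that binds decapping proteins, stood at 9.15, 9.44 and 9.84 in control and from 8.59 to 9.20 after treatment, with a pooled difference of -0.58 (adjusted p 0.0916). The eIF4E-binding protein EIF4ENIF1 gave 0.36 after actinomycin D, PAIP2, which binds poly(A)-binding protein, -0.49 after AB61, and the nuclear exosome cofactor ZCCHC8 0.35 after tubercidin, none of which passed.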

How the data were processed

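The levels that the authors deposited are on the log2 scale, 1 per probe set and array, after RMA. The submitters' processing notes name limma, oligo and RMA without versions. Per the labels' protocols, Trizol-extracted total RNA was labelled for whole-transcript arrays. The authors' comparison tables also hold an unadjusted p-value and a log2 fold change per probe set, and their fold changes equal the differences of group means computed here. The scale of the group means in those tables, headed intensity per the file headers, is log2 from their values.

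Of 22011 probe sets, 14432 carry 1 gene symbol, 2408 several and 5171 were not listed in the annotation used. For the 197 genes with several single-symbol probe sets the brightest over the 12 arrays was kept, giving 14232 genes. No filter on dim genes was applied, so all 50 measured members were tested. All 12 arrays and 4 groups were fitted in limma 3.58.1 (R 4.3.3; lmFit, then eBayes in its plain form, with 4.91 prior and 8 residual degrees of freedom). Two-sided p-values were adjusted by the Benjamini-Hochberg method over all genes of each of 7 comparisons, with a threshold of 0.05. The median 95% interval of a member's difference reached 0.30 to either side; the number of arrays limits this precision. The fit was also run on simulated data drawn independently for each array, without deviations shared by replicate number. That run does not bear on calls near the threshold.

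Replicate numbers were taken to pair the AB61 and control arrays, whose deviations from the group means correlated at 0.158, 0.355 and 0.268. In every other pair of groups a replicate correlated at 0.0858 or lower, while some replicates there reached up to 0.596. Going by the lowest value in this way does not show that those groups are unpaired. The members and lists were chosen with earlier results of these data known. Values on every array were given for members past the threshold, the 6 with the smallest p in each comparison with control, members whose 9 treated arrays all lay beyond control, and DCP2, XRN1, PARN, UPF1, ZFP36, ZFP36L1 and TOB1, with CNOT1 and BTG1 unmeasured. DCP1A, ZFP36L2, LSM5, EXOSC4 and EXOSC8 were shown in addition, chosen after their values were seen. Other decay genes were named where among the 3 smallest p in a comparison. Alternatives covered the scaling, the filter, the fit, the probe sets and single arrays. Array weights were estimated gene by gene, since limma's default estimate did not converge. Promoter stretches came from RefSeq, with 42 of 50 members matched.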

Additional observations from a re-analysis of the deposited data

How the results depend on the processing

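Of 1515 values of the 15 genes chosen by rule, under up to 26 alternatives, 1459 kept their direction and their side of the threshold, 9 newly passed, 24 no longer passed and 23 turned sign. DCP1B kept its direction throughout. It was the 1 gene of the 15 that passed in the settings reported. Of the values that newly passed or no longer passed, 31 were of DCP1B. Many alternatives change only the p-values or leave out an array of another group, so the difference could not turn sign there. The number of the 50 genes past an adjusted p of 0.05 after actinomycin D was 1, and it became 0 with each array centred on its median, quantile normalization repeated, the intensity trend removed, centring on ribosomal protein genes, eBayes with trend, eBayes robust, only the compared groups fitted (with or without the replicate block), all probe sets tested or the authors' deposited p-values. With array weights it was 2 (DCP1B and AGO2), and leaving out single arrays gave 0 to 1. After AB61 it was 0, and 1 with array weights or the replicate block. After tubercidin it was 0, and 1 with dim genes left out, array weights or the replicate block. Leaving out single arrays gave 0 to 1 for both. Over the treated groups together it was 1, became 0 on centring on ribosomal protein genes, 2 with array weights (DCP1B and TOB2) and 2 with the replicate block (DCP1B and EXOSC4), and was 0 to 1 without single arrays. The replicate block changed no other call of the 50 genes. For the other groups the correlations by replicate number were uneven, and whether the numbers pair them was not settled. The block's calls there are given only as values.

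Among all genes, the pooled comparison called 149, and 49 on centring on ribosomal protein genes, 55 with all probe sets, 75 with median centring, 568 with array weights and 517 with the block. It called 6 without control replicate 2, 8 without control replicate 3 and 263 without AB61 replicate 3. AB61 called 24, and 508 with array weights, 193 with the block and 0 to 98 without single arrays. Tubercidin called 13, and 46, 116 and 2 to 33 in turn, and actinomycin D 17, and 539, 130 and 1 to 25. Other settings lowered the counts after AB61, tubercidin and actinomycin D: to 3, 6 and 2 with median centring, 0, 1 and 1 with only the compared groups fitted, 1, 4 and 2 with all probe sets, and 2, 10 and 8 with the authors' deposited p-values. Removing the intensity trend gave 18, 6 and 3, repeated quantile normalization 34, 9 and 7, centring on ribosomal protein genes 18, 25 and 11, eBayes with trend 14, 13 and 14, leaving out dim genes 49, 22 and 17, and the block with only the compared groups 11, 11 and 9. Centring on ribosomal protein genes moved the median of all genes to 0.18 after AB61, 0.12 after tubercidin and 0.12 over the treated groups. The median of the 50 genes then became 0.0243, 0.136 and 0.0310, and 0.0672 for AB61 against actinomycin D and 0.107 for tubercidin against actinomycin D. Without single arrays the AB61 median ran from -0.113 to -0.0318, the tubercidin one from -0.0521 to 0.0299, the actinomycin D one from -0.0825 to -0.0208 and the pooled one from -0.0842 to -0.0179; the last 2 upper values are those without control replicate 1.

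Of the 15 genes, those with differences that turned sign were DCP2, HNRNPD, LSM6, PARN, UPF1 and XRN1. On centring on ribosomal protein genes the tubercidin differences became 0.0538 for DCP2, 0.0924 for HNRNPD, 0.0831 for LSM6, 0.13 for UPF1 and 0.0748 for XRN1. Array weights gave -0.0182 for PARN after AB61, 0.0403 for XRN1 after tubercidin, -0.0334 for UPF1 after actinomycin D and -0.0158 for UPF1 over the treated groups. Without single arrays, UPF1 ran from -0.0046 to 0.0596 after AB61, -0.139 to 0.138 after tubercidin, -0.0294 to 0.05005 after actinomycin D and -0.0281 to 0.0643 over the treated groups. LSM6 and XRN1 after tubercidin ran from -0.19 to 0.0582 and from -0.197 to 0.108, and DCP2 after actinomycin D from -0.16 to 0.0160. The cause was not tested for any of these. Background values were not used here, so no limit set by signal over background is given.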
